A study of Mus musculus with 12 samples.

Results

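The genes described here are 10 enzymes and receptors of prostaglandin and leukotriene signalling: Ptgs1, Ptgs2, Ptges, Hpgd, Ptger2, Ptger4, Alox5, Alox5ap, Lta4h and Ltc4s. They were picked by symbol, and all 10 were found among the 24465 genes listed in at least 1 of the 2 deposited tables. Total RNA was sequenced from mouse bone marrow-derived macrophages, which are grown in culture from marrow progenitors, in 12 libraries that form 4 groups of 3. Both genotypes carried Lyz2cre, in which the Cre recombinase is expressed from the lysozyme 2 locus of myeloid cells. Klf6fl/fl:Lyz2cre cells carried floxed Klf6 in addition and are called Klf6-deleted here, and Lyz2cre cells were their control. Klf6 encodes a zinc-finger transcription factor. Cells of each genotype were given the inflammatory cytokine TNF at 10 ng/ml for 6 h or were left untreated. The groups are thus Klf6-deleted with TNF, Lyz2cre with TNF, Klf6-deleted untreated and Lyz2cre untreated. Strain, sex, age, the floxed exons and the number of Cre alleles are not stated in the labels. Nor is it stated that replicates were separate animals or dishes of cells, and p-values therefore reflect the spread among these libraries alone, which may be technical.

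Prostaglandins and leukotrienes are lipid mediators made from arachidonic acid, which phospholipases release from membranes. The cyclooxygenases encoded by Ptgs1, usually constitutive, and Ptgs2, usually inducible, make the common prostaglandin precursor, and the inducible synthase encoded by Ptges turns it into prostaglandin E. That product acts through the cAMP-raising receptors encoded by Ptger2 and Ptger4 and is inactivated by the dehydrogenase encoded by Hpgd. In the other branch, 5-lipoxygenase (Alox5) works with its activating protein (Alox5ap), and its product is converted by the hydrolase Lta4h to the neutrophil attractant leukotriene B or by the synthase Ltc4s to the cysteinyl leukotrienes. Macrophages are known for making both kinds of mediator.

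The promoters of Ptges, Ptgs2 and Hpgd are shown because the prostaglandin results turn on these genes. Each sequence runs from 250 bases before to 50 bases after the RefSeq start (GRCm38.p6). Ptges is at chr2:30903248-30903547 on the minus strand, Ptgs2 at chr1:150099781-150100080 on the plus strand and Hpgd at chr8:56294302-56294601 on the plus strand. In GENCODE vM21 the Ptges gene spans chr2:30889471-30929863, so its window lies inside the gene and another start is annotated further upstream. Capitals mark matches on either strand to the GC box (GGGCGG) or the CACCC box (CACCC), motifs that Krüppel-like factors are known to bind, and matches may overlap.
Ptges: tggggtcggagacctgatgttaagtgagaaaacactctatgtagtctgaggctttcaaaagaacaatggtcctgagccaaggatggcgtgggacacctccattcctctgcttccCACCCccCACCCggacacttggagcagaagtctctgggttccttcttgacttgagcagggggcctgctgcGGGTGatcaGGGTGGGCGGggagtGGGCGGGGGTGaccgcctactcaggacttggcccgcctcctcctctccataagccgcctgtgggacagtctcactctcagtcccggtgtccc
Ptgs2: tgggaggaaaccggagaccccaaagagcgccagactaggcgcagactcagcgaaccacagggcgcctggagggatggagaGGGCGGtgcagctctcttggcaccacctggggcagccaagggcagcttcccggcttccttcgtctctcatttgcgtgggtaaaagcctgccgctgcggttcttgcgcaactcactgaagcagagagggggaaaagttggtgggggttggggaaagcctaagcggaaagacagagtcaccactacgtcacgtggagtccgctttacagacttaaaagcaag
Hpgd: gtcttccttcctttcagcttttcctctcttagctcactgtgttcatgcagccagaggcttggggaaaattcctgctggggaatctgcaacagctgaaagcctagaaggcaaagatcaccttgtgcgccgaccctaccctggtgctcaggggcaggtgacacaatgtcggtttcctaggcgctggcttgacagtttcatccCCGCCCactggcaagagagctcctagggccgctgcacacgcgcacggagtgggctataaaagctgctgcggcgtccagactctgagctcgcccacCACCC
The Ptges window held 2 GC boxes and 5 CACCC boxes, some of them overlapping, the Ptgs2 window 1 GC box and no CACCC box, and the Hpgd window 1 of each. A GC box was found in 5 of the 9 promoters of these genes that RefSeq's table holds and in 35.9% of 27025 promoters of that length, and a CACCC box in 7 of the 9 and in 56.7%. The NF-kB consensus was found in 0 of the 9 and in 8.18% of all. These are letter matches in a short window and say nothing about binding in these cells.

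Values are the authors' normalized counts, reads divided by 1 size factor per library, and changes are given as Klf6-deleted over Lyz2cre on a log2(value + 1) scale, so that those of low genes are understated. Between 16.9 and 23.4 M gene-assigned reads stood behind each library. The targeted gene, Klf6, had 4161 ± 43.4 normalized counts in Klf6-deleted and 7447 ± 255 in Lyz2cre cells with TNF (SD, n = 3 each), 1.79-fold lower (limma adjusted p = 4.34e-11). Untreated it had 7101 ± 269 and 10118 ± 174, 1.43-fold lower (limma adjusted p = 7.15e-10). Where in the gene the remaining reads lie was not tested. Lyz2, whose locus drives Cre, had 931 ± 108 in Klf6-deleted and 1656 ± 45.8 in Lyz2cre cells with TNF, and 244 ± 39.3 and 856 ± 26.5 untreated. All 8 macrophage markers examined were present in every group, and in Klf6-deleted cells 6 were lower and 2 (Cd68 and Mertk) higher with TNF, and 7 were lower and 1 (Fcgr1) higher untreated. They summed to 156820 to 157490 in Klf6-deleted and 236759 to 248831 in Lyz2cre cells with TNF, and to 175841 to 189235 and 326888 to 333240 untreated. All 7 stromal markers were also present, and of the 6 tested 5 were higher in Klf6-deleted cells with TNF and 6 untreated. They summed to 2451 to 2785 in Klf6-deleted and 429 to 660 in Lyz2cre cells with TNF, and to 41820 to 44960 and 1898 to 2261 untreated. The 6 neutrophil markers summed to 151 to 191 in Klf6-deleted and 248 to 273 in Lyz2cre cells with TNF, and to 7244 to 7793 and 9248 to 10536 untreated, with Mpo at 0 in Lyz2cre cells with TNF. Of these, 2 of 4 tested were lower in Klf6-deleted cells with TNF, and untreated 4 were lower and 2 (Mpo and Elane) higher. The 4 monocyte markers summed to 1776 to 1993 in Klf6-deleted and 1935 to 2415 in Lyz2cre cells with TNF, and to 5925 to 7154 and 2106 to 2244 untreated. With TNF 1 monocyte marker (Ly6c2) was higher in Klf6-deleted cells and 2 were lower, and untreated all 4 were higher. The 4 endothelial markers summed to 551 to 562 in Klf6-deleted and 1704 to 2221 in Lyz2cre cells with TNF. Untreated they summed to 1074 to 1286 and 465 to 493. Of those tested, 2 of 2 were lower in Klf6-deleted cells with TNF and 3 of 3 higher untreated. Kdr made up most of each sum, with means of 540 in Klf6-deleted and 2010 in Lyz2cre cells with TNF. With TNF the mean of Cdh5 was also lower in Klf6-deleted cells, but those of Pecam1 and Tie1 were higher, all at low counts. The part of these other cells in the results was not tested, and fewer cells of a type and less RNA per cell cannot be told apart. Scaling to total reads in place of the authors' size factors raised the median log2 change of all genes by 0.33 with TNF and by 0.13 untreated. It also made 80.4% in place of 46.2% of the called genes higher with TNF, and 68.0% in place of 48.5% untreated.

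Klf6-deleted cells differed from Lyz2cre cells in both branches, and for the inducible prostaglandin E enzymes Ptgs2 and Ptges the direction was opposite with and without TNF. With TNF, 8 of the 10 genes passed the filter on low values and were tested. Of these, 4 were higher and 3 lower in Klf6-deleted cells. Among all 11717 genes tested 57.3% changed, 26.5% being higher and 30.8% lower (limma, adjusted p below 0.05). Ltc4s, 1 of the 4, passed the filter through the Klf6-deleted libraries alone, since 0 Lyz2cre libraries reached its minimum. The median log2 change was 0.15 for these 8 genes and -0.01 for all genes. Untreated, all 10 were tested, of which 4 were higher and 3 lower, where 56.9% of all 12715 genes tested changed, 27.6% being higher and 29.3% lower. These shares of all genes are large, and nothing particular to the 10 genes is read from their counts. Their median was -0.07, against -0.01 for all genes. The genotype effect differed between TNF and no TNF for 7 of the 8 genes tested in both, where 52.2% of 11425 genes did. The effect was more positive with TNF for 5 of them and more negative for 2, against 26.5% and 25.7% of all genes. Ltc4s, with the limit just given, was 1 of the 5.

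**Figure D1:**
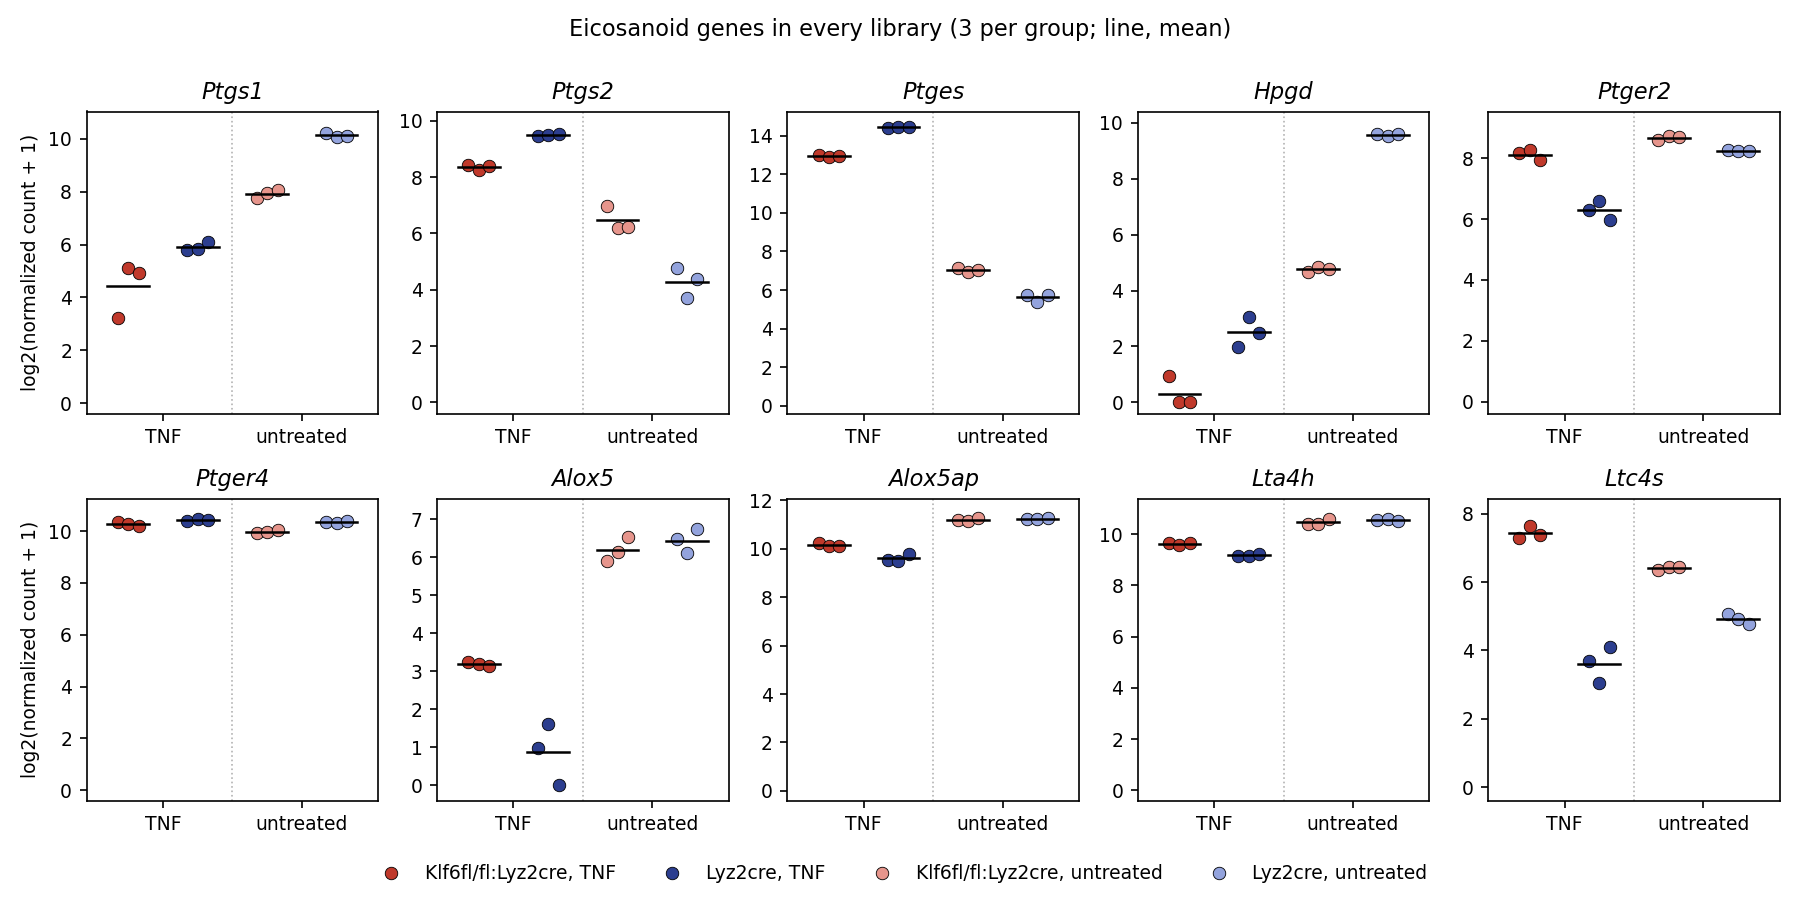
Normalized counts of the 10 genes on the log2(count + 1) scale in each of the 12 libraries, with Klf6fl/fl:Lyz2cre left of Lyz2cre under TNF and untreated; points are libraries and lines are means of 3. Ptgs2 and Ptges lie lower in Klf6fl/fl:Lyz2cre cells with TNF and higher in untreated ones, whereas Ltc4s and Ptger2 lie higher in both conditions.

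Ptgs2 (GRCm38 chr1:150100031-150108227, plus strand), which encodes the inducible cyclooxygenase, was lower in Klf6-deleted cells with TNF and higher in untreated ones. With TNF it had 339, 301 and 331 normalized counts in Klf6-deleted libraries and 696, 710.3 and 736 in Lyz2cre libraries. Untreated it had 126, 71.8 and 73.1 in Klf6-deleted and 26.3, 12.1 and 19.7 in Lyz2cre libraries. The genotypes did not overlap in either condition, and their order was turned round. The log2 change was -1.14 with TNF (SE 0.0790, limma adjusted p = 3.01e-09), 2.20-fold lower. Untreated it was 2.18 (SE 0.298, limma adjusted p = 5.13e-06), 4.52-fold higher, on 10 to 24 reads per Lyz2cre library, of which 1 reached the filter's minimum of 1 CPM (reads scaled to library depth). The difference between these effects was -3.32 (SE 0.310, limma adjusted p = 2.33e-08).

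Ptges (chr2:30889471-30929863, minus strand), which encodes the inducible prostaglandin E synthase, showed the same reversal at a far higher level with TNF. It had 8207, 7669 and 7856 normalized counts in Klf6-deleted and 21536, 22280.0 and 22178 in Lyz2cre libraries with TNF. Untreated it had 140.04, 121 and 132 in Klf6-deleted and 52.5, 41.2 and 52.5 in Lyz2cre libraries. The genotypes again did not overlap. The log2 change was -1.48 with TNF (SE 0.0399, limma adjusted p = 2.02e-14), 2.78-fold lower, and 1.41 untreated (SE 0.173, limma adjusted p = 1.34e-06), 2.66-fold higher. The difference between the effects was -2.89 (SE 0.109, limma adjusted p = 2.22e-14). The higher untreated values of both genes stood beside the higher stromal, monocyte and endothelial markers of the same libraries. The part of these other cells was not tested.

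Set side by side across the tables, Ptges was 60.5-fold higher with TNF than untreated in Klf6-deleted cells and 451-fold higher in Lyz2cre cells. Ptgs2 was 3.59-fold higher with TNF in Klf6-deleted cells and 36.9-fold higher in Lyz2cre cells. The authors normalized the tables separately, so these ratios of group means carry no test. Size factors computed jointly over the 12 libraries would multiply every such ratio by 1.21 in Klf6-deleted and by 1.23 in Lyz2cre cells. The macrophage, stromal, neutrophil and endothelial sums given above also differed between the TNF and untreated libraries. So did the monocyte sum in Klf6-deleted cells. The part of these cells was not tested.

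Ptgs1 (chr2:36230426-36252272, plus strand), which encodes the constitutive cyclooxygenase, was lower in Klf6-deleted cells with and without TNF. With TNF it had 8.41, 33.6 and 29.2 normalized counts in Klf6-deleted and 54.7, 56.6 and 67.6 in Lyz2cre libraries. Untreated it had 213, 243 and 268 in Klf6-deleted and 1204, 1073 and 1112 in Lyz2cre libraries. The genotypes did not overlap, and with TNF 1 Klf6-deleted library, with 9 reads, lay well below the other two. The log2 change was -1.496 with TNF (SE 0.390, limma adjusted p = 0.00379), 2.82-fold lower, and without that library, Klf6-deleted replicate 1, it was -0.90 (limma adjusted p = 0.00851). Untreated it was -2.23 (SE 0.0825, limma adjusted p = 9.97e-14), 4.68-fold lower. The difference between the effects did not pass the test, at 0.73 (95% CI -0.17 to 1.63, limma adjusted p = 0.166), but it passed without that library at 1.32 (limma adjusted p = 1.17e-05), with edgeR (adjusted p = 0.0224), with DESeq2 (adjusted p = 0.00132) and with a pseudocount of 5 (limma adjusted p = 0.0385). Ptgs1 was 10.2-fold lower with TNF than untreated in Klf6-deleted cells and 18.9-fold lower in Lyz2cre cells, again with no test.

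Hpgd (chr8:56294585-56321043, plus strand), which encodes the enzyme that inactivates prostaglandin E, was far lower in untreated Klf6-deleted cells, and few reads of it were counted in either genotype with TNF. Untreated it had 24.2, 27.9 and 26.0 normalized counts in Klf6-deleted and 769, 738 and 772 in Lyz2cre libraries. The libraries of a genotype lay close together and the genotypes far apart, with a log2 change of -4.82 (SE 0.125, limma adjusted p = 6.78e-16), 28.2-fold lower. With TNF 1, 0 and 0 reads were counted in Klf6-deleted and 3, 7 and 4 in Lyz2cre libraries. That is too few for the filter on low values, so Hpgd was not tested with TNF. Summed over libraries and corrected for the size factors, its level was 15.7-fold lower in Klf6-deleted cells, with an exact 95% interval of 2.39 to 665 that covers counting error only. In Lyz2cre cells Hpgd was 154-fold lower with TNF than untreated, on 14 reads with TNF and with no test.

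Within a library, levels per length compare the 2 cyclooxygenase genes directly, as a ratio of RPKM values (reads per kilobase of exon, scaled to library depth), computed with the merged exon length of GENCODE vM21. With TNF the Ptgs2 to Ptgs1 ratio was 7.59 to 34.2 in Klf6-deleted libraries (median 9.64) and 9.23 to 10.8 in Lyz2cre libraries (median 10.6), so the genotypes overlapped. The value of 34.2 came from Klf6-deleted replicate 1, which had 9 reads of Ptgs1. Untreated the ratio was 0.231 to 0.5002 in Klf6-deleted libraries (median 0.250) and 0.00957 to 0.0185 in Lyz2cre libraries (median 0.0150), so the genotypes did not overlap. Ptgs2 thus exceeded Ptgs1 per length in all 6 TNF-treated libraries and in none of the 6 untreated ones.

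**Figure D2:**
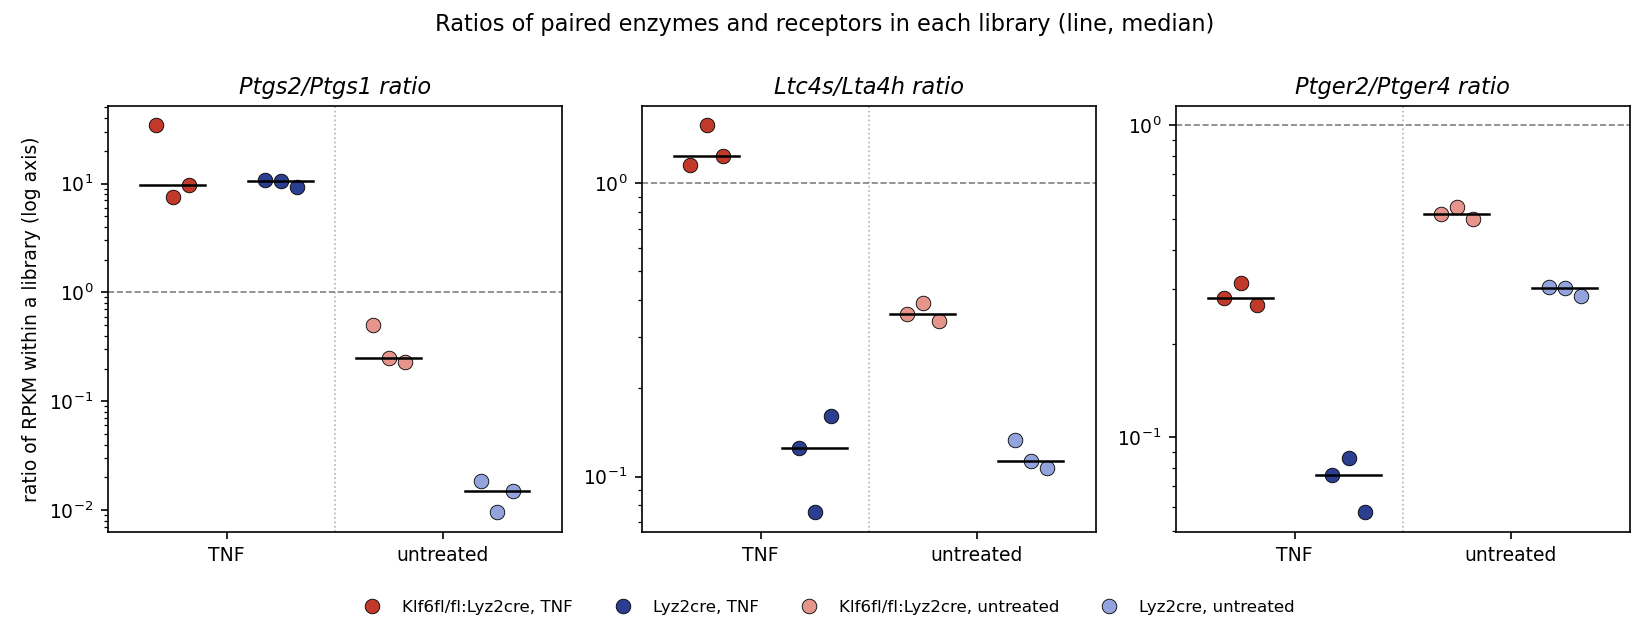
Ratio of RPKM of Ptgs2 to Ptgs1, of Ltc4s to Lta4h and of Ptger2 to Ptger4 within each library on log axes, with Klf6fl/fl:Lyz2cre left of Lyz2cre under TNF and untreated; points are libraries, solid lines are medians of 3 and the dashed line marks equal levels. The Ptgs2 to Ptgs1 ratio overlaps between genotypes with TNF (medians 9.64 and 10.6), while the Ltc4s to Lta4h ratio is above equality in the Klf6fl/fl:Lyz2cre libraries with TNF alone. The highest Ptgs2 to Ptgs1 ratio rests on 9 reads of Ptgs1.

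The receptors moved differently from each other. Ptger2 (chr14:44988195-45003820, plus strand), which encodes the EP2 receptor, was higher in Klf6-deleted cells in both conditions. With TNF it had 288, 306 and 244 normalized counts in Klf6-deleted and 78.6, 94.7 and 61.9 in Lyz2cre libraries. Untreated it had 389, 427 and 415 in Klf6-deleted and 307, 301 and 301 in Lyz2cre libraries. The groups did not overlap, and the gap was wider with TNF. The log2 change was 1.83 with TNF (SE 0.160, limma adjusted p = 5.56e-08), 3.57-fold higher, and 0.43 untreated (SE 0.0799, limma adjusted p = 0.000141), 1.35-fold higher. The difference between the effects was 1.40 (SE 0.183, limma adjusted p = 2.36e-06). Set across the tables, Ptger2 was 1.47-fold lower with TNF than untreated in Klf6-deleted cells and 3.87-fold lower in Lyz2cre cells.

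Ptger4 (chr15:5206661-5244187, minus strand), which encodes the EP4 receptor, had group means between 1004 and 1370. With TNF it had 1316, 1249 and 1179 normalized counts in Klf6-deleted and 1327, 1406 and 1376 in Lyz2cre libraries. Untreated it had 960.3, 995 and 1056 in Klf6-deleted and 1292, 1277 and 1356 in Lyz2cre libraries. The groups did not overlap, though with TNF they nearly touched. Untreated it was lower in Klf6-deleted cells, with a log2 change of -0.38 (SE 0.0526, limma adjusted p = 5.31e-06), 1.30-fold. With TNF it did not pass the test, at -0.13 (unadjusted 95% CI -0.26 to -0.01, limma adjusted p = 0.0578). That value turned to 0.19 when scaled to total reads (limma adjusted p = 0.00843), which is -0.13 relative to the shift of all genes. It passed without Klf6-deleted replicate 1 (-0.17, limma adjusted p = 0.0349) and with all 4 groups in 1 fit (limma adjusted p = 0.0383). The difference between the effects was 0.25 (SE 0.0769, limma adjusted p = 0.0109). Per length, Ptger2 stood at 0.265 to 0.314 of the Ptger4 level in Klf6-deleted and at 0.0576 to 0.0862 in Lyz2cre libraries with TNF, and at 0.503 to 0.549 and 0.284 to 0.305 untreated. Both receptors overlap genes on the opposite strand, Ptger4 the coding gene Ttc33, and the use of strand in the counting is not given in the sources used here, so their levels are uncertain to that extent. The same holds for Ptgs1, which overlaps a predicted gene on the other strand, while Hpgd and Ptges overlap a predicted gene and a pseudogene on their own strand.

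**Figure D3:**
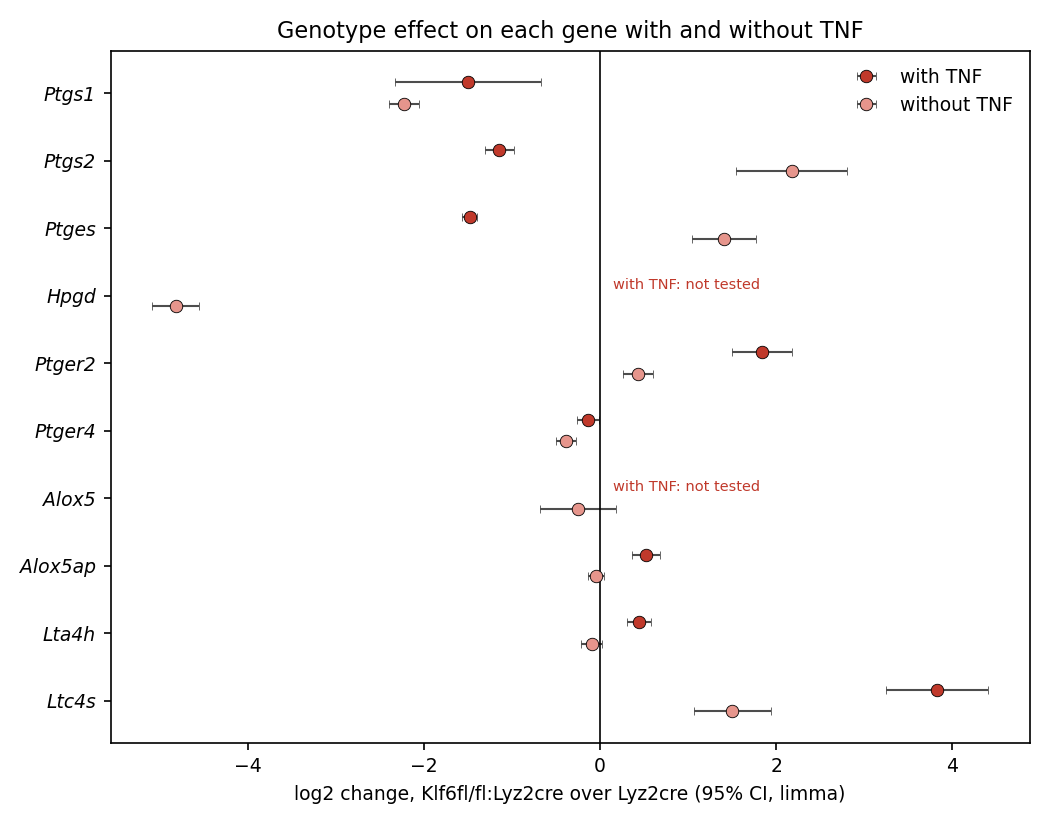
Log2 change of each gene in Klf6fl/fl:Lyz2cre over Lyz2cre cells, with TNF (upper, dark) and without (lower, light); points are estimates and bars are 95% confidence intervals from limma with 3 libraries per group. Ptgs2 and Ptges lie on opposite sides of 0 in the conditions, and Hpgd and Alox5 have no value with TNF because they were too low to be tested.

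In the leukotriene branch, Ltc4s (chr11:50236461-50238616, minus strand), the synthase of the cysteinyl leukotrienes, was higher in Klf6-deleted cells in both conditions. With TNF it had 155, 199.9 and 164 normalized counts in Klf6-deleted and 11.9, 7.21 and 16.1 in Lyz2cre libraries. Untreated it had 80.9, 86.7 and 86.9 in Klf6-deleted and 32.8, 29.1 and 26.3 in Lyz2cre libraries. No library of one genotype reached the range of the other. The log2 change was 3.83 with TNF (SE 0.271, limma adjusted p = 3.98e-09), 14.2-fold higher, and 1.503 untreated (SE 0.209, limma adjusted p = 6.05e-06), 2.83-fold higher. The difference between the effects was 2.32 (SE 0.346, limma adjusted p = 1.17e-05). With TNF, Ltc4s passed the filter through the Klf6-deleted libraries alone, since 0 Lyz2cre libraries reached 1 CPM. Set across the tables, it was 2.04-fold higher with TNF than untreated in Klf6-deleted cells and 2.504-fold lower in Lyz2cre cells, with no test of either. Of 8 mast cell and basophil markers, cells that also express Ltc4s, 4 were listed with TNF. They summed to 14.5 to 43.7 normalized counts in Klf6-deleted and 46.7 to 61.8 in Lyz2cre libraries with TNF, and all 8 to 141 to 170.5 and 129 to 139 untreated. Mcpt8 was at 0 in Lyz2cre cells with TNF and Tpsb2 in untreated Lyz2cre cells. In Klf6-deleted cells the 1 marker tested with TNF was lower, and of 3 tested untreated 1 was higher and 1 lower. With TNF, Gata2 averaged 15.8 in Klf6-deleted and 48.3 in Lyz2cre cells, and Kit 11.3 and 5.10. Untreated, Prss34 averaged 10.9 and 35.0, and Mcpt8 30.9 and 8.12. The part of mast cells and basophils in the result was not tested. Ltc4s overlaps an antisense gene, with which it can share reads if strand was not used.

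The other genes of this branch did not pass the test between untreated genotypes. Alox5ap (chr5:149264767-149288153, plus strand), which encodes the activating protein of 5-lipoxygenase, had 2305, 2252 and 2463 normalized counts in untreated Klf6-deleted and 2377, 2387 and 2461 in untreated Lyz2cre libraries. Lta4h (chr10:93453411-93484875, plus strand), the hydrolase that makes leukotriene B, had 1355, 1332 and 1541 in untreated Klf6-deleted and 1487, 1544 and 1479 in untreated Lyz2cre libraries. Both overlapped between genotypes. Their log2 changes did not pass the test, at -0.04 for Alox5ap (95% CI -0.13 to 0.05, limma adjusted p = 0.429) and -0.10 for Lta4h (95% CI -0.21 to 0.02, limma adjusted p = 0.149), and both turned positive when scaled to total reads (0.09 and 0.04). The value of Lta4h passed without Klf6-deleted replicate 3 (-0.16, limma adjusted p = 0.0121).

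With TNF both genes were higher in Klf6-deleted cells. Alox5ap had 1186, 1093 and 1096 normalized counts in Klf6-deleted and 747, 725 and 885 in Lyz2cre libraries, a log2 change of 0.52 (SE 0.0757, limma adjusted p = 1.98e-05). Lta4h had 809, 765 and 799.99 in Klf6-deleted and 572, 573 and 599 in Lyz2cre libraries, a log2 change of 0.44 (SE 0.0661, limma adjusted p = 2.64e-05). The genotypes did not overlap for either gene. The genotype effect differed between the conditions by 0.56 for Alox5ap (SE 0.0903, limma adjusted p = 2.77e-05) and by 0.54 for Lta4h (SE 0.0828, limma adjusted p = 1.68e-05). Set across the tables, both were lower with TNF than untreated in both genotypes, Alox5ap 2.08-fold in Klf6-deleted and 3.07-fold in Lyz2cre cells, and Lta4h 1.78-fold and 2.59-fold. Alox5ap overlaps an antisense gene, and the same limit of strand holds for it.

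Alox5 (chr6:116410077-116461178, minus strand), which encodes 5-lipoxygenase itself, was low throughout. Untreated it had 59.2, 68.8 and 91.7 normalized counts in Klf6-deleted and 87.5, 67.8 and 106 in Lyz2cre libraries. The genotypes overlapped, and the log2 change of -0.25 did not pass the test (95% CI -0.68 to 0.18, limma adjusted p = 0.322). With TNF 9, 9 and 8 reads were counted in Klf6-deleted and 1, 2 and 0 in Lyz2cre libraries, too few for the filter, so it was not tested. Summed over libraries and corrected for the size factors, its level was 7.72-fold higher in Klf6-deleted cells, with an exact 95% interval of 2.36 to 39.8 that covers counting error only. Alox5 was 9.02-fold lower with TNF than untreated in Klf6-deleted and 85.6-fold lower in Lyz2cre cells, with no test. These low values stood beside the lower neutrophil markers of the TNF-treated libraries, cells that also express Alox5. Between genotypes with TNF the neutrophil sum was lower in Klf6-deleted cells, at 151 to 191 against 248 to 273, where Alox5 was higher. The part of neutrophils was not tested.

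Per length the order of the genes changed from group to group. With TNF, Ptges came first, at 122 ± 4.27 RPKM in Klf6-deleted and 271 ± 7.96 in Lyz2cre cells (SD, n = 3 each), and Alox5ap second, at 48.2 ± 2.28 and 26.8 ± 2.64. Untreated, Alox5ap came first, at 86.9 ± 3.88 RPKM in Klf6-deleted and 81.6 ± 1.75 in Lyz2cre cells, while Ptges was seventh and ninth of the 10. Hpgd came last in untreated Klf6-deleted cells, at 0.816 ± 0.0621 RPKM, where its libraries overlapped those of its neighbour Alox5, and second in untreated Lyz2cre cells, at 21.7 ± 0.666, with no overlap with its neighbours. Ltc4s took the fourth place in TNF-treated Klf6-deleted cells, at 10.4 ± 1.42 RPKM, overlapping Ptger4 above it, and eighth in TNF-treated Lyz2cre cells, at 0.559 ± 0.204, overlapping Ptger2 above it. Per length, Ltc4s exceeded Lta4h in TNF-treated Klf6-deleted libraries (ratio 1.15 to 1.57), against 0.0756 to 0.161 in TNF-treated Lyz2cre libraries. Untreated, the ratio was 0.339 to 0.392 in Klf6-deleted and 0.107 to 0.133 in Lyz2cre libraries.

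**Figure D4:**
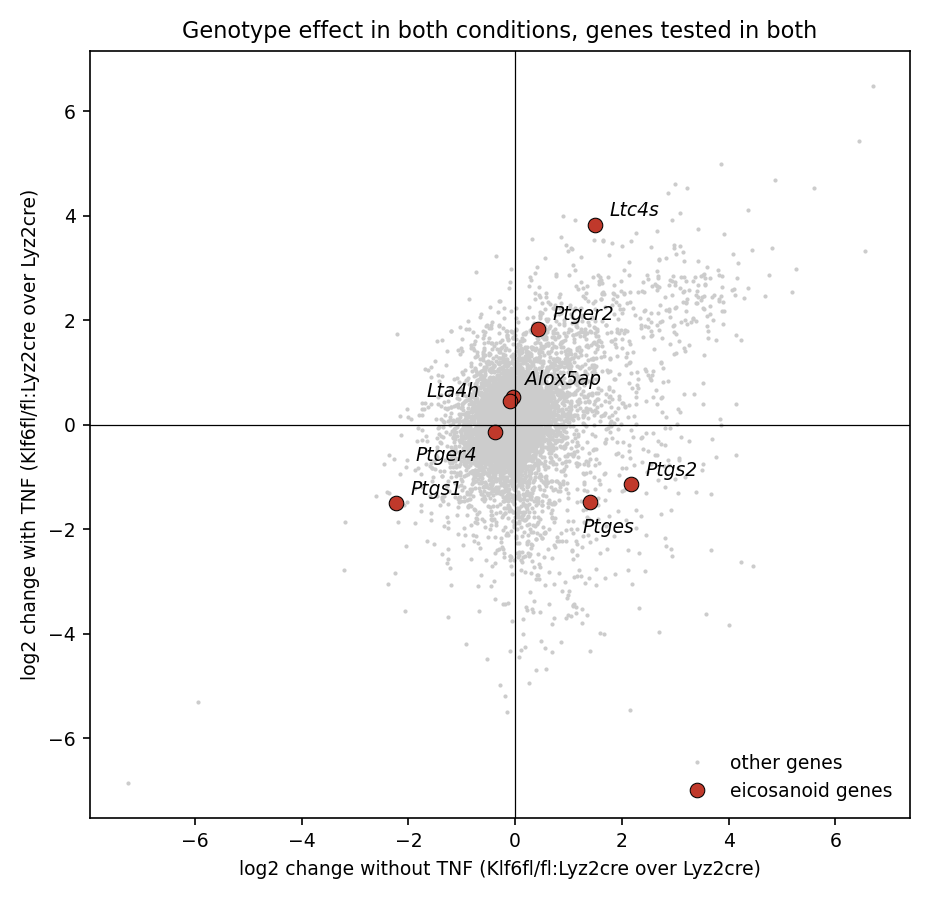
Log2 change in Klf6fl/fl:Lyz2cre over Lyz2cre cells without TNF (horizontal) and with TNF (vertical) for the genes tested in both conditions; grey points are all other genes and red points are the 8 eicosanoid genes tested in both. Ptgs2 and Ptges lie at the lower right, higher without TNF and lower with it, and Ltc4s and Ptger2 in the upper right.

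Other genes of the pathway were taken from 5 lists of 58 genes. With TNF 31 could be tested, of which 14 were higher and 9 lower in Klf6-deleted cells. Their median log2 change was 0.21, against -0.01 for all genes, of which 26.5% were higher and 30.8% lower. Untreated 36 could be tested, of which 15 were higher and 11 lower, with a median of 0.06, against -0.01 for all genes, of which 27.6% were higher and 29.3% lower. The lists are short, and the counts of each are a description to be read beside these shares. Some counted genes passed the filter through 1 genotype alone, as stated with them below. Of the genes for prostanoid synthesis and clearance, 7 were higher and 2 lower of 11 tested with TNF, and 2 were higher and 4 lower of 11 untreated, where 57.3% of all genes changed with TNF and 56.9% untreated. Ptgr1, a reductase that acts on prostaglandin and leukotriene products, was higher with TNF at 1502 ± 25.7 normalized counts in Klf6-deleted and 398 ± 55.4 in Lyz2cre cells (SD, n = 3 each), 3.79-fold (limma adjusted p = 1.09e-11), and 1.78-fold higher untreated (limma adjusted p = 8.07e-09). Cbr3, of the carbonyl reductase family, was 4.71-fold higher with TNF, at 460.2 ± 70.2 against 97.6 ± 21.3 (limma adjusted p = 3.16e-09), but 1.15-fold lower untreated, at 405 ± 39.5 against 463 ± 17.2 (limma adjusted p = 0.0469). Slco2a1, a transporter that takes up prostaglandins, was 10.8-fold higher in untreated Klf6-deleted cells, at 431 ± 47.8 against 39.95 ± 11.8 (limma adjusted p = 1e-11). Ptgfr, the prostaglandin F receptor, was higher in the same cells at 31.6 ± 11.9 against 1.82 ± 1.67 (limma adjusted p = 4.09e-05), as was Dpep1, a dipeptidase that acts on cysteinyl leukotrienes, at 269 ± 17.1 against 22.98 ± 3.29 (limma adjusted p = 5.42e-12). Ptgfr passed the filter through the Klf6-deleted libraries alone, since 0 Lyz2cre libraries reached 1 CPM. Slco2a1 was also 5.45-fold higher with TNF, at 31.8 ± 2.69 against 6.47 ± 4.75 (limma adjusted p = 0.00105). With TNF Slco2a1 likewise passed the filter through the Klf6-deleted libraries alone. Slco2a1, Ptgfr and Dpep1 stood beside the higher stromal, monocyte and endothelial markers of untreated Klf6-deleted cells. The part of these other cells was not tested.

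Of the list of phospholipases and related genes, 3 were higher and 4 lower of 10 tested with TNF, and 6 were higher and 1 lower of 9 untreated. These stand again beside 57.3% and 56.9% of all genes changed. Pla2g6, a calcium-independent phospholipase, was 2.37-fold higher with TNF, at 169.7 ± 28.2 against 71.9 ± 18.5 (limma adjusted p = 3.33e-05), and 1.21-fold higher untreated (limma adjusted p = 0.0391). Pla2g2e and Pla2g5 encode secreted phospholipases. Pla2g2e was 2.22-fold higher with TNF, at 63.5 ± 3.09 against 28.5 ± 5.98 (limma adjusted p = 0.000664), and 1.99-fold higher untreated (limma adjusted p = 0.000333). Pla2g5 was 3.54-fold higher untreated, at 22.9 ± 0.878 against 6.64 ± 4.26 (limma adjusted p = 0.00349), where it passed the filter through the Klf6-deleted libraries alone. With TNF Pla2g5 did not pass the test, at 20.05 ± 2.13 against 17.6 ± 0.979 (limma adjusted p = 0.663). Pla2g4c, a relative of the cytosolic phospholipase, was 3.39-fold lower with TNF, at 7.86 ± 3.97 against 26.9 ± 3.40 (limma adjusted p = 0.0022), and it passed the filter through the Lyz2cre libraries alone. Of the other prostanoid receptors, 1 of 2 tested was higher with TNF and 2 of 3 untreated, and the rest did not pass the test. In the lipoxygenase and leukotriene list 2 of 4 were higher with TNF and the others did not pass, and 4 were higher and 4 lower of 8 untreated. Alox12, which encodes another lipoxygenase, was 2.70-fold higher untreated, at 56.6 ± 1.42 against 21.1 ± 7.12 (limma adjusted p = 0.000248), with 1 Lyz2cre library at 1 CPM or more. Cyp4f18, whose enzyme degrades leukotriene B in mouse, was 2.77-fold higher with TNF, at 46.7 ± 4.86 against 16.2 ± 0.909 (limma adjusted p = 0.000243), where it passed the filter through the Klf6-deleted libraries alone. Untreated it was 1.74-fold lower, at 247 ± 28.6 against 430.2 ± 58.3 (limma adjusted p = 4.18e-06). Of the leukotriene and resolvin receptors, 1 was higher and 3 lower of 4 with TNF, and 1 was higher and 2 lower of 5 untreated. Cysltr2, a receptor of cysteinyl leukotrienes, was 2.56-fold lower with TNF, at 29.4 ± 3.18 against 77.5 ± 13.7 (limma adjusted p = 8.82e-05), and did not pass untreated, at 62.2 ± 6.27 against 42.99 ± 16.8 (limma adjusted p = 0.0565).

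Over the 12 libraries, which form 4 separate groups, the log2 profile of Hpgd was most like those of Ulk2 (Pearson r = 0.996), Rgs10 (0.995) and Zdhhc9 (0.995) among the 10656 genes left of those tested in both tables when predicted and unnamed genes were left out. The profile of Ptgs2 was most like those of Dcbld2 (0.994), Klf7 (0.993) and Msn (0.992) among 10655. The likeness is one of shape and not of size, since Ulk2 had 478 normalized counts on average in Klf6-deleted cells with TNF and 2125 in untreated Lyz2cre cells, the extremes of its 4 groups. Dcbld2 had 1558 in Klf6-deleted and 2914 in Lyz2cre cells with TNF, and 527 and 199.98 untreated. These coefficients describe the 4 group levels of 2 separately normalized tables and carry no test.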

How the data were processed

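Total RNA was isolated and 150 ng per sample made into stranded libraries after removal of ribosomal RNA, per the labels' protocols. Per the submitters' processing notes, Cufflinks is listed without its role, and GRCm39 and mm10 are listed as builds. Aligner, counter, annotation and strand setting were not given in the sources used here. The authors deposited a table of normalized signal for each condition, 2 in all. The unit was read from the values: in each library 100% of them were whole multiples of 1 step within 0.001 reads, and each step was the inverse of the library's median-of-ratios size factor computed within that table, which means separate normalization of the conditions. Symbols were found for 22867 of 22896 untreated and 21411 of 21437 TNF identifiers, and gene lengths came from GENCODE vM21 (GRCm38).

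Genotypes were compared within a table on log2(value + 1) in limma, its prior variance following mean expression. Genes needed 1 CPM or more in 3 or more libraries, and p-values were adjusted over all of them by Benjamini-Hochberg. The interaction used all 12 libraries and the genes that passed in both tables. The gene lists, the markers and the 10 genes were chosen with earlier results of these data known. The rule named all 10 genes, up to 12 pathway genes past the test with the largest changes, and the 3 genes most correlated with Hpgd and Ptgs2. Klf6 and Lyz2 served as checks. Replicate numbers were not treated as pairs. Counting intervals are exact and cover counting error only, and the labels name no molecular identifiers. Alternatives were edgeR and DESeq2 on recovered reads, other filters, pseudocounts and scalings, a joint fit, a replicate block and each library left out. Work in Python 3.11.15 used scipy 1.17.1, pandas 2.3.3, matplotlib 3.10.9 and numpy 2.4.6, and that in R 4.3.3 used DESeq2 1.42.0, limma 3.58.1 and edgeR 4.0.16.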

Additional observations from a re-analysis of the deposited data

Results flagged for a closer look

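The genotype effect differed between TNF-treated and untreated cells, by the test of the difference itself, for 7 of the 8 genes tested in both conditions, where 52.2% of all genes did. The effect with TNF minus that without was -3.32 for Ptgs2 and -2.89 for Ptges on the log2 scale, and both changed sign between the conditions. It was 2.32 for Ltc4s and 1.40 for Ptger2, which were higher in Klf6-deleted cells in both conditions, with the larger difference under TNF. It was 0.56 for Alox5ap, 0.54 for Lta4h and 0.25 for Ptger4, each of which passed the genotype test in only 1 of the 2 conditions. With TNF, Ltc4s passed the filter through the Klf6-deleted libraries alone, since 0 Lyz2cre libraries reached 1 CPM.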

How the results depend on the processing

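Of the log2 changes of the 10 genes under all alternatives, 428 kept their direction and their side of the threshold. A further 7 kept their direction and newly passed the test, and 3 changed sign. The sign changes came with scaling to total reads. They were 0.0904 for Alox5ap and 0.0368 for Lta4h untreated, neither of which passed, and 0.19 for Ptger4 with TNF, which did (limma adjusted p = 0.00843). Ptgs1, Ptger4 and Lta4h account for the newly passed values given beside them. Of the 10 genes, 10 were tested untreated and 8 with TNF and for the interaction. With each library left out, 7 to 8 of those tested passed in every comparison. In all, 6047 to 6619 genes passed with TNF, 6622 to 6857 untreated and 5564 to 5984 for the interaction. On recovered reads edgeR called 6707 genes with TNF, 7219 untreated and 6027 for the interaction, and DESeq2 6268, 6694 and 5877. With no filter on low values Hpgd and Alox5 could be tested with TNF, with log2 changes of -2.19 (limma adjusted p = 0.0091) and 2.32 (limma adjusted p = 0.00557) that depend on the pseudocount. The replicate numbers recur between groups. After removal of group means, same-numbered libraries correlated at 0.152, -0.0378 and 0.158 untreated and at -0.0209, -0.0123 and -0.0295 with TNF. Libraries of different number correlated at -0.230 to 0.114 untreated and at -0.0015 to 0.0224 with TNF. So few values cannot decide whether the replicates were paired. Pairing between TNF-treated and untreated libraries was not examined. With the replicate block 7 of the 10 genes tested untreated passed, and 7 of the 8 tested with TNF and for the interaction. In all, 6473 genes passed with TNF, 7284 untreated and 5834 for the interaction. Depth limits Hpgd and Alox5 with TNF, where no library held more than 9 reads of either.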
